A study of Mus musculus with 15 samples.

Results

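The CXC chemokines are small secreted proteins, named for a pair of conserved cysteines with a single residue between them, that steer leukocytes along gradients. The genes described here are Cxcl1, Cxcl2, Cxcl5, Cxcl9, Cxcl10, Cxcl12, Cxcl13, Cxcl14, Cxcl15 and Cxcl16. They were taken by symbol from a raw count table of whole mouse lung, where they are 10 of 33340 genes. All 10 passed the filter on low counts, which kept 17457 genes. Against day 0, 5 of the 10 were higher at day 7, 4 at day 14 and 5 at day 21 after bleomycin, and 1, the epithelial gene Cxcl15, was lower at day 21. Of all tested genes 8.78%, 12% and 12.4% were higher at these days, and 10.1% were lower at day 21. The steepest rise was that of the interferon-inducible pair Cxcl9 and Cxcl10 at day 7, at 11.4-fold and 8.04-fold.

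Bleomycin, a drug that breaks DNA and scars the lung, was given into the trachea at 5 U/kg to male C57BL/6 mice of 10 to 12 weeks. Whole lungs were collected at day 0 (4 libraries), day 7 (4), day 14 (4) and day 21 (3), and polyA RNA was sequenced. These numbers follow the titles, while the design text speaks of 3 replicates at each time. The day 0 lungs are titled as controls and carry no treatment by their labels, except day 0 replicate 4, whose treatment label names bleomycin. No lung given a vehicle was analysed here, so days after the drug and days after the instillation cannot be told apart. Nothing in the labels says whether a library is 1 mouse, so p-values measure the spread between these libraries. In whole lung, fewer cells of a type and less RNA per cell cannot be told apart.

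Between 15652008 and 18020661 reads were counted per library, and the lung epithelial marker Sftpc was present in all 15, at 2213 to 25095 CPM, the usual unit of counts scaled to library size. Counts of mitochondrial genes made up 2.03% to 4.22% of a library. They were under 2.5% in all 4 day 7 libraries, in day 0 replicates 1 and 2 and in day 14 replicate 1, but over 4% in day 0 replicates 3 and 4. Day 0 replicate 4 also stood apart in Zfp36, an immediate early RNA decay factor, at 638.2 CPM where the other 3 day 0 lungs gave 120.5 to 213.1. Summed cardiac muscle markers were highest in day 21 replicate 1 (701.9 CPM) and day 7 replicate 4 (587.7 CPM), against 15.4 to 250.3 CPM in the other 13 libraries.

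CXC ligands act on G protein-coupled receptors of the CXCR family. Those that carry the residues Glu-Leu-Arg ahead of the first cysteine, the ELR group, act through CXCR2 and draw neutrophils. Cxcl9 and Cxcl10 act through CXCR3 on activated T and NK cells, Cxcl12 through CXCR4, Cxcl13 through CXCR5 on B cells, and Cxcl16 through CXCR6. Cxcl14 is made at rest by many epithelia, and its receptor is disputed. In the lung, Cxcl15 (lungkine) is a product of the bronchial and alveolar epithelium, and Cxcl5 of alveolar type 2 cells.

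The genes lie mainly in clusters on mouse chromosome 5 (GRCm38, GENCODE M21). An ELR cluster at chr5:90759360-90905938, 146.6 kb long, holds in order Cxcl5, Ppbp, Pf4, Cxcl3, Cxcl15, Cxcl1 and Cxcl2. A second cluster of 44.1 kb at chr5:92321347-92365485 holds Cxcl9, Cxcl10 and Cxcl11 on the minus strand, and Cxcl13 lies on its own at chr5:95956951-95961068. Elsewhere are Cxcl12 at chr6:117168535-117181367, Cxcl14 at chr13:56288643-56296551 and Cxcl16 at chr11:70453983-70459984. An exon of Cxcl10 shares 133 bases with Art3 on the opposite strand, and Cxcl16 shares 552 bases with Zmynd15. The strand setting of the counting was not stated, so how reads over the shared bases were counted is not known.

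The inducible genes are known targets of NF-kappa-B and of interferon-activated STAT and IRF factors. The 250 bases upstream of the RefSeq start (GRCm38.p6) are shown for the neighbours Cxcl1 and Cxcl2, for Cxcl9 and Cxcl10, and for Cxcl15, the gene that fell at day 21. Letters in capitals mark matches, on either strand, to the kappa-B site, the ISRE-like motif GAAANNGAA or the GAS motif TTCNNNGAA, and sequences run 5′ to 3′ in the direction of the gene.
Cxcl1 chr5:90890995-90891244 (plus strand): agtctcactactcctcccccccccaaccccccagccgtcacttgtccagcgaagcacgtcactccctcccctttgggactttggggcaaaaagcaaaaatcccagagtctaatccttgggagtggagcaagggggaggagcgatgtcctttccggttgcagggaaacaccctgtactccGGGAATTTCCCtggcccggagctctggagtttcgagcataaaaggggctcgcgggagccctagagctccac
Cxcl2 chr5:90903649-90903898 (plus strand): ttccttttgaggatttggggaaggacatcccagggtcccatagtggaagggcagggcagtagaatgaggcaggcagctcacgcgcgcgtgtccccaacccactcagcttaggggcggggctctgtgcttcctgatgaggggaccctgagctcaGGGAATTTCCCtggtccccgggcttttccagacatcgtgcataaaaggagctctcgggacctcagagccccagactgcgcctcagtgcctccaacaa
Cxcl9 chr5:92328080-92328329 (minus strand): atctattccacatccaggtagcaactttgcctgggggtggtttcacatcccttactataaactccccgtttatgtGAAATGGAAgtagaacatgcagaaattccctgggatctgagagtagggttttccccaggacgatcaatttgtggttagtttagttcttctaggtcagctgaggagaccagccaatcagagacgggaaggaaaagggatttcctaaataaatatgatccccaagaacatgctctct
Cxcl10 chr5:92348890-92349139 (minus strand): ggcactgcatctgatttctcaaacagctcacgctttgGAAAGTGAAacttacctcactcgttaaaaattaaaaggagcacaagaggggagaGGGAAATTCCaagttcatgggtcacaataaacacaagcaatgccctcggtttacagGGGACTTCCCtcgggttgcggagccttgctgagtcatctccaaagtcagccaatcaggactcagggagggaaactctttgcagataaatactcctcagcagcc
Cxcl15 chr5:90794284-90794533 (plus strand): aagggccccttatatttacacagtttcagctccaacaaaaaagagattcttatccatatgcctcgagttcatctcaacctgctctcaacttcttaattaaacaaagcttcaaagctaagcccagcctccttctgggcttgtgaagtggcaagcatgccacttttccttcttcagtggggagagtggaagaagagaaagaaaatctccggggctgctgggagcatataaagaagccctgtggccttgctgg

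Cxcl1 and Cxcl2 each held an overlapping kappa-B match on the plus and minus strands, starting 71 and 97 bases before the start in the direction of the gene. Cxcl10 held 2 kappa-B matches, 159 and 103 bases before the start, and an ISRE-like match at 213. Cxcl9 held an ISRE-like match at 175 and no kappa-B match in this window. Of the 8 genes with a RefSeq promoter in the table used here (all but Cxcl5 and Cxcl16), 3 held a kappa-B match, beside 3.90% of 32851 promoters. The ISRE-like motif was in 3 of 8 (Cxcl9, Cxcl10 and Cxcl14), beside 7.13%, and the GAS motif in 1 of 8 (Cxcl14), beside 7.02%. A TATAAA box was in 3 of 8 (Cxcl9, Cxcl13 and Cxcl15), beside 12.4%. The upstream windows of Cxcl12, Cxcl13 and Cxcl15 held none of the kappa-B, ISRE-like and GAS letters. These matches describe the letters only.

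A call needed an adjusted p below 0.05 and a fold above 1.5 in edgeR's quasi-likelihood test over all 17457 genes. At day 7, Cxcl1, Cxcl5, Cxcl9, Cxcl10 and Cxcl16 rose and none of the 10 fell, where 8.78% of all tested genes rose and 7.36% fell. At day 14, Cxcl5, Cxcl9, Cxcl10 and Cxcl16 rose and none fell, beside 12% and 11.2% of all genes. At day 21, Cxcl5, Cxcl9, Cxcl10, Cxcl12 and Cxcl16 rose and Cxcl15 fell, beside 12.4% and 10.1%. The median log2 fold change of the 10 was 1.14, 1.19 and 1.25 at the 3 days, where that of all genes was 0.01, 0.02 and 0.02. The 3 contrasts share the day 0 libraries. Cxcl2, Cxcl13 and Cxcl14 passed the test at none of these days, although their log2 fold changes were above 0 at each.

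**Figure D1:**
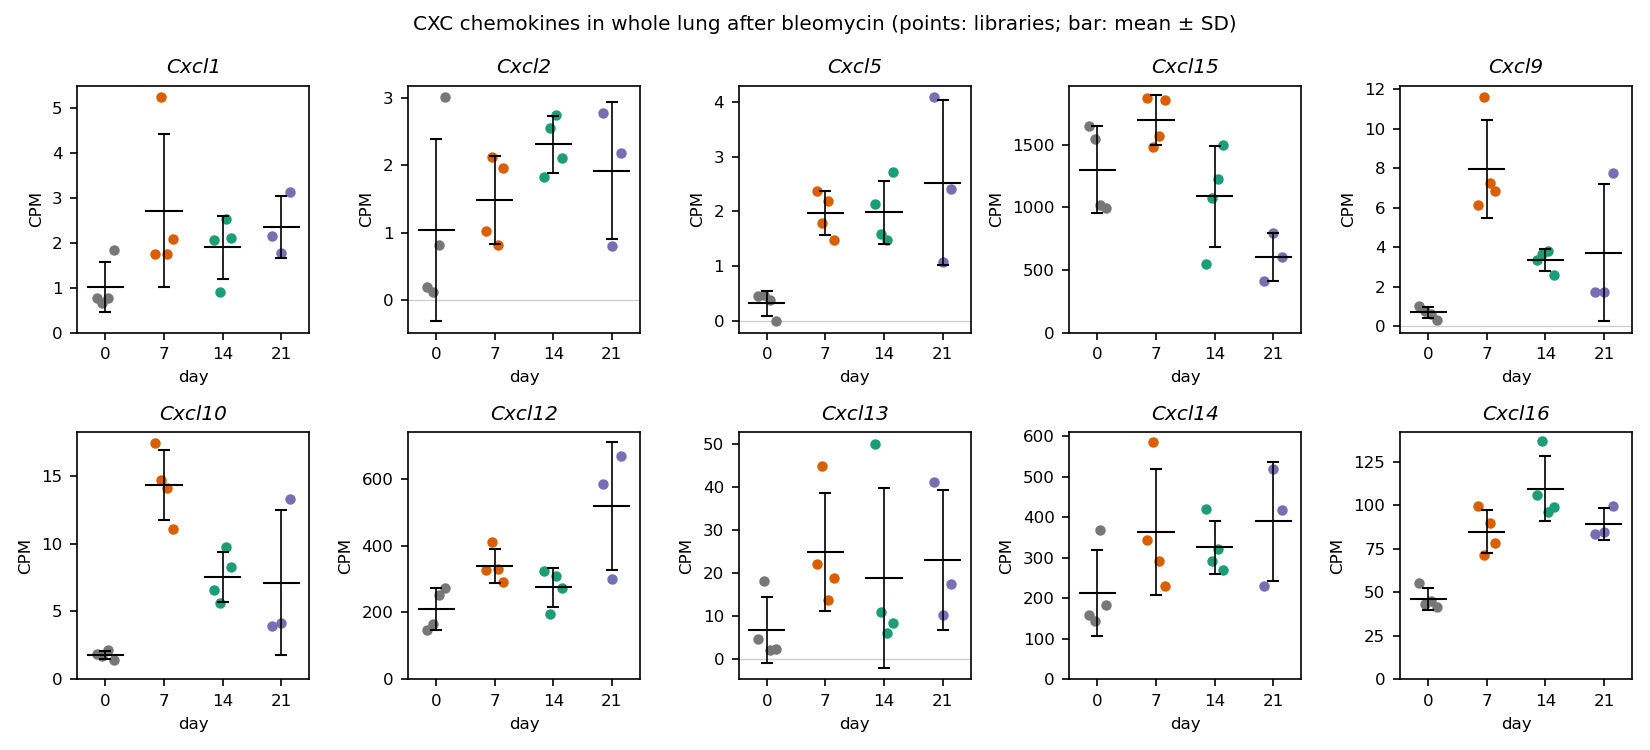
Level of each of the 10 CXC chemokines in CPM (y axis, linear, a scale of its own in each panel) by day after bleomycin (x axis). Points are libraries, and bars the mean ± SD of 4, 4, 4 and 3 libraries. The means of Cxcl9 and Cxcl10 are highest at day 7, though neither differed from a later day in the main test. The mean of Cxcl15 is lowest at day 21, and Cxcl2 at day 0 spans 0.121 to 3.01 CPM.

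Among the interferon-inducible ligands of CXCR3, Cxcl9 stood at 1.04, 0.786, 0.635 and 0.335 CPM in the 4 day 0 libraries. At day 7 it reached 6.12, 11.6, 7.25 and 6.84 CPM. It stood at 3.37, 3.64, 3.83 and 2.60 CPM at day 14, and at 1.73, 1.71 and 7.76 CPM at day 21. No library after bleomycin overlapped day 0, and every day 14 library lay below every day 7 library. The day 21 libraries split, with replicate 3 within the day 7 range and the other 2 below day 14. The log2 fold changes against day 0 were 3.51 ± 0.49 (SE), 2.27 ± 0.48 and 2.42 ± 0.51 in the order of the days, with adjusted p of 0.000206, 0.00230 and 0.00225. These values rest on 6 to 16 counts per day 0 library and 28 to 208 after bleomycin.

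Cxcl10 followed a like course at a higher level. It was 1.88, 1.69, 2.16 and 1.39 CPM at day 0 and 17.4, 14.7, 14.1 and 11.1 CPM at day 7. At day 14 it was 6.56, 5.61, 9.78 and 8.27 CPM, and at day 21 3.90, 4.16 and 13.3 CPM. Again no later library overlapped day 0, all of day 14 lay below all of day 7, and day 21 replicate 3 stood high. The log2 fold changes were 3.01 ± 0.36 (SE), 2.09 ± 0.36 and 2.00 ± 0.37, with adjusted p of 6.92e-05, 0.000446 and 0.00102. Without day 21 replicate 3, the day 21 log2 fold changes of Cxcl9 and Cxcl10 were 1.26 and 1.14, still called at adjusted p of 0.0269 and 0.00593. From day 7 to day 14, Cxcl9 and Cxcl10 differed by log2 -1.24 ± 0.42 and -0.92 ± 0.32, at adjusted p of 0.0848 and 0.0917, which missed the threshold. Their neighbour Cxcl11 had at most 4 counts in any library and was not tested.

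In the ELR group, Cxcl5 showed the clearest rise. Its day 0 levels were 0.453, 0.484, 0.381 and 0 CPM, the last a count of 0 that allows up to 0.167 CPM. Levels were 2.38, 1.79, 2.20 and 1.49 CPM at day 7, 2.13, 1.59, 1.49 and 2.72 CPM at day 14, and 4.08, 1.08 and 2.41 CPM at day 21. All 11 libraries after bleomycin exceeded all 4 of day 0. Cxcl5 rose by log2 values of 2.57 ± 0.57 (SE), 2.58 ± 0.57 and 2.93 ± 0.59, with adjusted p of 0.00477, 0.00273 and 0.00168. Without day 0 replicate 4, the library at 0, they were 2.12, 2.14 and 2.47, at adjusted p of 0.00656, 0.00311 and 0.00169.

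Cxcl1, the mouse KC, stood at 0.777, 0.665, 0.762 and 1.84 CPM at day 0, with replicate 4 high. At day 7 it was 1.76, 5.25, 1.76 and 2.08 CPM, with replicate 2 high. Day 14 gave 2.07, 0.893, 2.52 and 2.11 CPM, and day 21 gave 2.16, 1.77 and 3.12 CPM. Each later day overlapped day 0 through replicate 4. The log2 fold change passed the test at day 7, at 1.41 ± 0.45 (SE) and adjusted p of 0.0335, and did not at day 14 (0.90 ± 0.46, adjusted p = 0.145) or day 21 (1.20 ± 0.48, adjusted p = 0.0722). Single libraries decided this: without day 7 replicate 2 the day 7 value was 0.87 at adjusted p of 0.157. It also missed the threshold without day 0 replicate 1, 2 or 3, at adjusted p of 0.0828, 0.0868 and 0.0936. Without day 0 replicate 4 all 3 days passed, at 1.86, 1.35 and 1.64, with adjusted p of 0.0177, 0.0482 and 0.0258.

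For Cxcl2 (MIP-2), too, day 0 replicate 4 was high. It was 0.194, 0.121, 0.825 and 3.01 CPM at day 0, so that replicate 4 exceeded all 11 later libraries and the other 3 lay at or below 0.825 CPM. Levels were 1.02, 2.12, 0.824 and 1.96 CPM at day 7, 1.83, 2.55, 2.75 and 2.11 CPM at day 14, and 2.78, 0.798 and 2.18 CPM at day 21. With all libraries the log2 fold changes were 0.49 ± 0.68 (SE), 1.13 ± 0.67 and 0.86 ± 0.72, at adjusted p of 0.636, 0.216 and 0.402. With limma voom they were 1.31, 2.04 and 1.60, and that of day 14 passed, at adjusted p of 0.0324. Among libraries under 2.5% mitochondrial counts, which leave out day 0 replicates 3 and 4, the day 7 value passed at 3.17 (adjusted p = 0.0128). Without day 0 replicate 4 they were 1.92, 2.56 and 2.28, and all 3 passed, at adjusted p of 0.0447, 0.00679 and 0.0167. That library is also the one whose treatment label differs and whose Zfp36 stood apart, and the part of either in the Cxcl1 and Cxcl2 values was not tested. Without it, the number of the 10 genes called was 7, 6 and 8 at the 3 days, in place of 5, 4 and 6. The share of all tested genes called in either direction was 12.1%, 20.8% and 20.7% without it, in place of 16.1%, 23.1% and 22.5%.

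Cxcl15, the lung epithelial ELR ligand, had the highest CPM of the 10 in every library of day 0, 7 and 14, while at day 21 Cxcl12 exceeded it in replicates 1 and 3. It stood at 1654, 1545, 1019 and 992.9 CPM at day 0 and at 1873, 1483, 1568 and 1862 CPM at day 7. At day 14 it was 545.7, 1079, 1229 and 1499 CPM, with replicate 1 below all of day 0. The 3 day 21 libraries, at 413.4, 793.0 and 602.1 CPM, lay below every day 0 and every day 7 library. Cxcl15 fell by 1.11 on the log2 scale (SE 0.30) from day 0 to day 21, at adjusted p of 0.0120, and by 1.49 (SE 0.31) from day 7 to day 21, at adjusted p of 0.00807. The values at day 7 (0.38 ± 0.27, adjusted p = 0.324) and day 14 (-0.26 ± 0.27, adjusted p = 0.494) did not pass.

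Alveolar type 2 markers and Cxcl15 were both lower at day 21, but not at day 7, where Cxcl15 did not pass and its log2 value was above 0 while the marker sum lay below that of day 0. The summed level of the markers ran from 28352 to 38519 CPM at day 0, 18643 to 27185 at day 7, 7328 to 21470 at day 14 and 4661 to 10122 at day 21. Sftpc, the surfactant protein C gene, gave 43.9% to 65.2% of the sum in the 15 libraries. None of the 8 markers was at 0 in a whole group. None passed the test at day 7, 5 of 8 fell at day 14 and 8 of 8 at day 21. At day 21 Sftpc fell by 2.39 and Sftpa1, another surfactant protein gene, by 2.48 on the log2 scale, with adjusted p of 0.000583 and 7.02e-05. The summed club and airway markers, of which the secretory gene Scgb1a1 gave 83.6% to 94.0%, were 27268 to 33859 CPM at day 0, 9507 to 12268 at day 7, 3001 to 7234 at day 14 and 1520 to 5752 at day 21. Of the 5 tested, 2 (Scgb1a1 and Cyp2f2), 5 and 2 fell at the 3 days, with a list median of 0.06 at day 7, and Krt5, the sixth, was at 0 in all day 0 libraries. The part of epithelial content in the Cxcl15 values was not tested.

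Cxcl12 (SDF-1), which holds CXCR4-bearing cells in place, was 146.3, 166.7, 253.6 and 273.5 CPM at day 0. It was 328.3, 411.6, 331.0 and 290.0 CPM at day 7 and 324.9, 194.8, 309.2 and 273.8 CPM at day 14. Day 21 gave 586.7, 301.5 and 668.7 CPM, all above day 0. At day 21 the log2 fold change was 1.30 ± 0.27 (SE) with adjusted p of 0.00191. Day 7 lay wholly above day 0, yet its value of 0.70 ± 0.25 missed the threshold at adjusted p of 0.0519. Without single libraries the day 7 value ran from 0.53 (adjusted p = 0.15, without day 0 replicate 1) to 0.83 (adjusted p = 0.0468, without day 0 replicate 4), and only the latter passed. The day 7 value also passed with limma voom (0.74, adjusted p = 0.0413), DESeq2 (0.67, adjusted p = 0.0326) and the 2 groups alone (0.66, adjusted p = 0.0279). Among libraries under 2.5% mitochondrial counts it passed at 1.10 (adjusted p = 0.00253), and with mitochondrial share as a term it did not (0.85, adjusted p = 0.106). The day 14 value was 0.39 ± 0.25, at adjusted p of 0.242. Fibroblast markers ran from 1865 to 2329 CPM at day 0, 3915 to 4722 at day 7, 2974 to 10503 at day 14 and 3956 to 7299 at day 21. The collagen genes Col1a1 and Col1a2 gave 29.9% to 37.0% of that sum at day 0 and 65.5% to 89.7% later. Of these 8 markers, 3 rose at each day and 0, 3 and 3 fell. Endothelial markers summed to 3114 to 3588 CPM at day 0 and 2106 to 2640 at day 21, with 2, 5 and 3 of 8 lower and none higher at the 3 days.

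The transmembrane ligand Cxcl16, which is also a scavenger receptor for oxidised lipoprotein, had the smallest SE of the 10 in each contrast with day 0. It stood at 55.1, 42.9, 44.8 and 41.4 CPM at day 0. It stood at 99.5, 71.4, 89.7 and 78.2 CPM at day 7, 105.9, 136.9, 95.9 and 99.1 CPM at day 14, and 83.3, 84.3 and 99.6 CPM at day 21. No later library overlapped day 0. Its rise was 0.88 ± 0.14 (SE), 1.25 ± 0.14 and 0.95 ± 0.15 on the log2 scale, with adjusted p of 0.000537, 1.29e-05 and 0.000255. Macrophages are a known source of Cxcl16. Their markers summed to 969.2 to 1303 CPM at day 0, 1233 to 2056 at day 7, 1886 to 4495 at day 14 and 2110 to 4190 at day 21. Of the 10, 6, 7 and 6 rose and 0, 0 and 1 fell, and none was at 0 in a whole group. Chil3, a chitinase-like protein, gave 30.8% to 68.4% of the sum and passed at none of the 3 days, while the other 9 summed to 387.7 to 434.0 CPM at day 0 and 853.2 to 1253 CPM at day 7. Their part in the Cxcl16 values was not tested.

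Cxcl13, the B cell attractant of lymphoid follicles, varied widely between libraries of a day. It was 4.60, 18.1, 1.90 and 2.29 CPM at day 0, 22.0, 44.9, 13.7 and 18.7 CPM at day 7, 50.0, 10.8, 6.06 and 8.21 CPM at day 14 and 41.2, 10.2 and 17.4 CPM at day 21. Day 0 replicate 2 and day 14 replicate 1 stood far above the others of their day. The log2 fold changes of 1.88 ± 0.77 (SE), 1.48 ± 0.76 and 1.77 ± 0.80 did not pass, at adjusted p of 0.0827, 0.149 and 0.111. Without day 0 replicate 2 they were 3.06, 2.66 and 2.94, and all 3 passed, at adjusted p of 0.0129, 0.0187 and 0.0146. The day 14 value was 0.30 without day 14 replicate 1 (adjusted p = 0.779), and the day 21 value 1.01 without day 21 replicate 1 (adjusted p = 0.446). With all libraries, the day 7 value passed with limma voom (2.35, adjusted p = 0.0414) and with no filter (1.87, adjusted p = 0.0309). It also passed with the 2 groups alone (1.86, adjusted p = 0.0429). With mitochondrial share as a term, Cxcl13 stood at 1.0 at day 7 (adjusted p = 0.394) and passed at day 21, at 2.63 and adjusted p of 0.00979. Among libraries over 3.5% mitochondrial counts it passed at day 14, at 1.98 and adjusted p of 0.00660. B cell markers summed to 133.8 to 220.5 CPM at day 0, 54.1 to 188.4 at day 7, 35.2 to 117.0 at day 14 and 43.4 to 65.9 at day 21. Of these markers 0, 8 and 9 of 10 fell at the 3 days, and their part in the Cxcl13 values was not tested.

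Cxcl14 was 157.4, 142.6, 369.6 and 182.4 CPM at day 0 and 344.8, 585.6, 292.3 and 229.0 CPM at day 7. It was 419.2, 291.4, 322.3 and 269.2 CPM at day 14 and 231.1, 520.0 and 418.1 CPM at day 21. Day 0 replicate 3 lay within the range of each later day. The log2 fold changes were 0.77 ± 0.33 (SE), 0.61 ± 0.33 and 0.87 ± 0.36, at adjusted p of 0.102, 0.173 and 0.0767. Without day 0 replicate 3 they were 1.15, 0.99 and 1.25, and all 3 passed, at adjusted p of 0.0210, 0.0247 and 0.0120. Without day 21 replicate 1 the day 21 value passed too, at 1.11 and adjusted p of 0.0416. Other libraries moved it down, to 0.44 at day 7 without day 7 replicate 2 (adjusted p = 0.361) and to 0.57 at day 21 without day 21 replicate 2 (adjusted p = 0.315). At day 14 it was 0.08 among libraries over 3.5% mitochondrial counts (adjusted p = 0.863), and at day 7 it passed among those under 2.5%, at 1.26 and adjusted p of 0.0292.

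**Figure D2:**
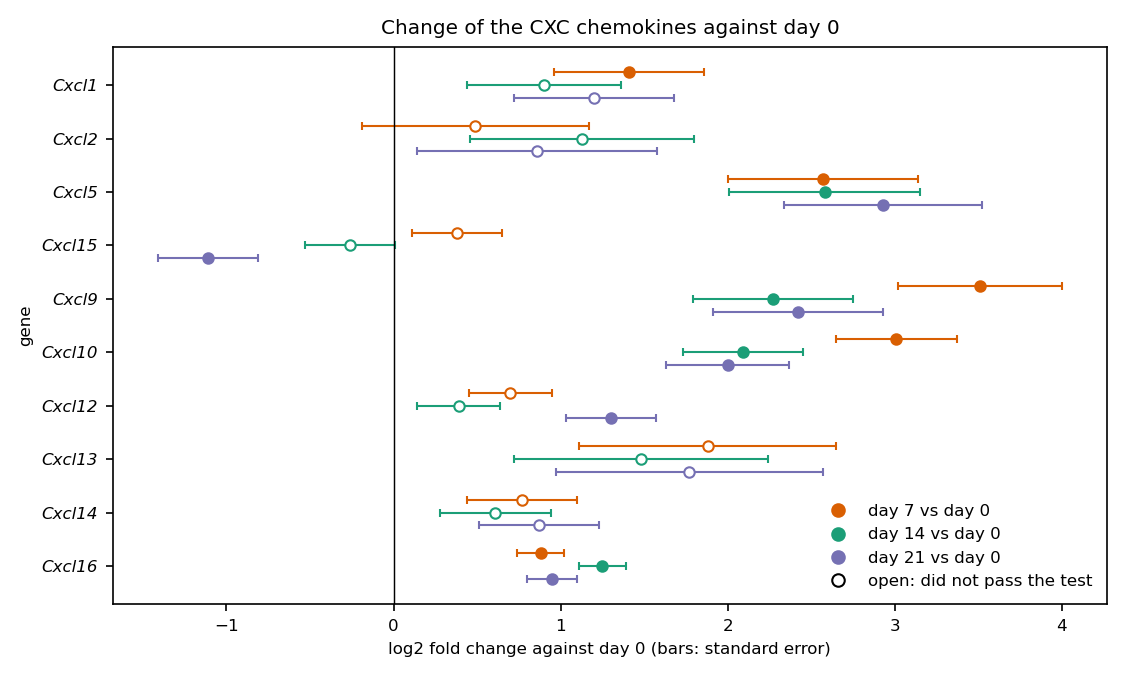
Log2 fold change of each CXC chemokine (y axis) against day 0 (x axis, log2 scale) at day 7, day 14 and day 21, with bars of 1 standard error. Filled points passed the test, open points did not. The largest values are those of Cxcl9 (3.51) and Cxcl10 (3.01) at day 7, and Cxcl15 at day 21 (-1.11) is the filled point below 0.

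Mitochondrial share differed between days, so the contrasts were also fitted with it as a term and within libraries of like share. With the term, the numbers called at day 7, 14 and 21 were 4, 4 and 7, beside 7.27%, 24% and 23.7% of all genes, and Cxcl9 and Cxcl10 kept day 7 log2 fold changes of 3.0 and 2.86. Among the libraries of day 0 and day 7 under 2.5%, which are 2 and 4, 8 of the 10 were called at day 7, beside 12.8% of all genes, with Cxcl9 at 3.11 and Cxcl10 at 2.98. Among those of day 0 and day 14 over 3.5%, which are 2 and 3, 5 were called, beside 17.7% of all genes, with Cxcl9 at 2.78 and Cxcl10 at 2.14. The 2 day 0 libraries of that fit are replicates 3 and 4, the latter being the one whose treatment label names bleomycin. There Cxcl12 and Cxcl15 at day 14 had values of -0.04 and 0.32, which differ in sign from those over all libraries, and passed the test in neither fit. Day 14 had 1 library under 2.5%, which entered neither fit, and day 21 had 1 over 3.5% and none under 2.5%, so its values were not split.

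With the mitochondrial term several calls of other genes were lost too. At day 7 these were Ackr1 (2.02, adjusted p = 0.0614), Ackr4 (-1.61, adjusted p = 0.0998, and -1.73 at 0.0649 among libraries under 2.5%), Ppbp (-1.31, adjusted p = 0.155), Mmp9 (-1.16, adjusted p = 0.0658) and S100a9 (-1.58, adjusted p = 0.0993), as well as Cxcl1 (1.53, adjusted p = 0.116). Between later days they were the fall of Cxcr3 to day 14 (-1.67, adjusted p = 0.157) and that of Cxcr6 to day 21 (-1.44, adjusted p = 0.188). The further rises of Ackr3 from day 7 to day 14 (0.40, adjusted p = 0.277) and to day 21 (0.53, adjusted p = 0.0949) were lost too. Ltf lost its call at day 21 (3.29, adjusted p = 0.0617). Among the libraries over 3.5% the day 14 calls of Cxcr2 (-0.62, adjusted p = 0.206), Cxcr5 (-1.46, adjusted p = 0.0794), Cxcl17 (0.57, adjusted p = 0.125), Ppbp (-1.50, adjusted p = 0.0772) and Il1b (-0.97, adjusted p = 0.0819) were lost, as were those of Dpp4, Mmp9, Ltbr, Tnfsf13b and Sftpc, at adjusted p of 0.0682 to 0.187. Day 0 replicate 4, kept in that fit, had the lowest day 0 level of Cxcr2 (23.1 CPM), Cxcr5 (5.13 CPM) and Il1b (28.6 CPM), but not of Cxcl17 or Ppbp. Its part in these losses was not tested. With the term the day 14 fold of Ccl21a was under 1.5 (0.53). Socs1 at day 7 was 1.09 at adjusted p of 0.0585 among libraries under 2.5%.

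Between the later days few differences passed. From day 7 to day 14, 0 of the 10 were called by edgeR, beside 6.00% of all genes. At an unadjusted p under 0.05 there were 4 (Cxcl9, Cxcl10, Cxcl15 and Cxcl16), beside 25.0% of all genes, and DESeq2 called 2 and voom 0, beside 8.71% and 5.7% of all genes. From day 7 to day 21, 1 was called (Cxcl15, lower), beside 9.54%, and 4 had an unadjusted p under 0.05, beside 30.0% of all genes. From day 14 to day 21, edgeR called 0 of the 10 and 0% of all genes, although 1714 genes had an unadjusted p under 0.05. Among the 10 these were Cxcl12 (0.91 ± 0.27) and Cxcl15 (-0.85 ± 0.30), and DESeq2 and voom also called 0 of the 10, beside 0.603% and 0% of all genes.

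Per length of exon, the levels of the 10 genes at day 0 ran from a median of 602.9 CPM per kb for Cxcl15 to 0.224 for Cxcl5. Cxcl15 had a range of 466.8 to 777.5 CPM per kb of exon, followed without overlap by Cxcl14, at 78.1 to 202.3. Cxcl12 (17.9 to 33.5), Cxcl16 (13.7 to 18.3) and Cxcl13 (1.66 to 15.7) came next, each overlapping its neighbour. The 5 inducible genes Cxcl10, Cxcl1, Cxcl2, Cxcl9 and Cxcl5 lay lowest, with medians of 0.793, 0.410, 0.246, 0.236 and 0.224, and each overlapped the next in this order. At day 7 the ranges of Cxcl10 (4.94 to 7.72), Cxcl9 (2.03 to 3.85) and Cxcl5 (0.798 to 1.28) did not overlap. At day 21 Cxcl15 (194.4 to 372.8) and Cxcl14 (126.5 to 284.6) overlapped.

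**Figure D3:**
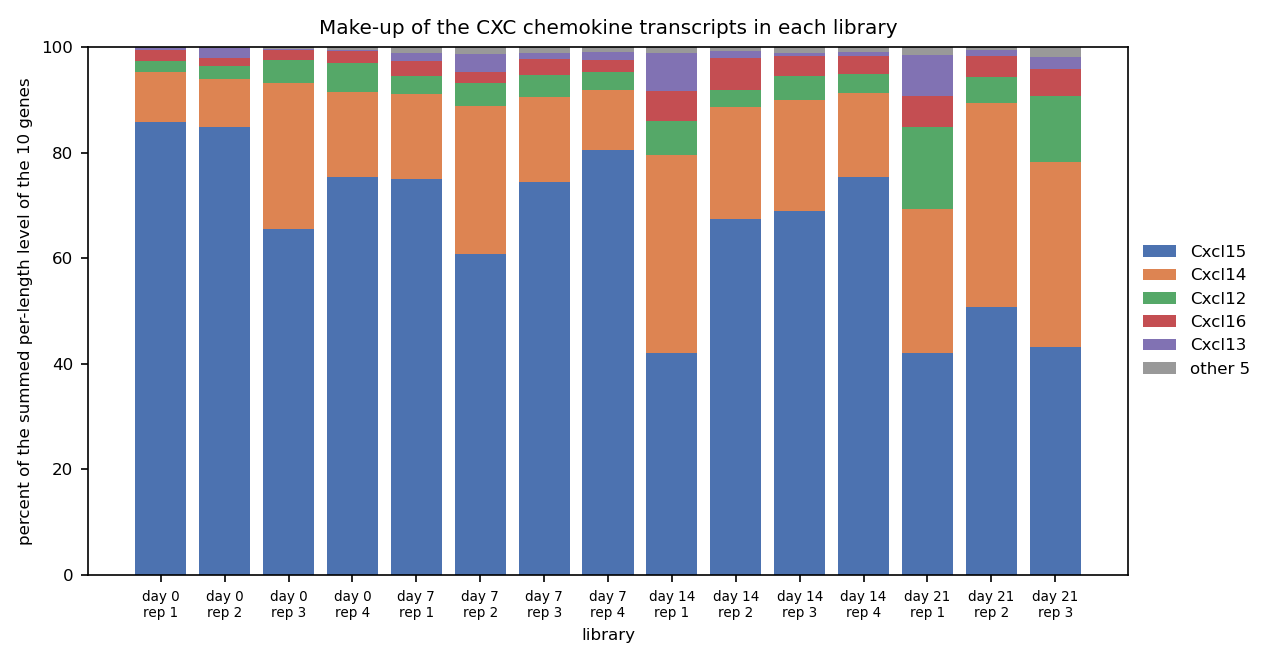
Share (y axis, percent) of each gene in the summed CPM per kb of the 10 CXC chemokines, for each of the 15 libraries (x axis). The bars are stacked, and the 5 genes of low level are pooled. The share of Cxcl15 runs from 65.5% to 85.8% at day 0 and from 42.0% to 50.7% at day 21.

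As shares of the summed level per length, Cxcl15 made up a median of 80.1%, 74.7%, 68.2% and 43.3% in the order of the days. Cxcl14 held 12.8%, 16.1%, 21.1% and 35.0%. Cxcl12 held 3.31%, 3.75%, 4.05% and 12.5%. Cxcl10 stood at 0.0960%, 0.601%, 0.435% and 0.374%. A share moves when any of the 10 moves, so these are descriptions.

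The other mouse CXC ligands divided. Cxcl3, an ELR neighbour, was 0.0635 to 0.423 CPM at day 0, 1.07 to 2.32 at day 7, 0.765 to 1.93 at day 14 and 0.399 to 0.742 at day 21. It rose at day 7 (log2 fold change 2.33 ± 0.47 SE, adjusted p = 0.00275) and day 14 (2.04 ± 0.47, adjusted p = 0.00391), and at day 21 was 1.0 ± 0.52 at adjusted p of 0.164. Cxcl17, a mucosal attractant of myeloid cells, was 29.2 to 35.3 CPM at day 0, 68.3 to 103.2 at day 7, 33.2 to 83.5 at day 14 and 38.5 to 101.2 at day 21. It rose at the 3 days, by 1.44, 0.82 and 0.95, with adjusted p of 0.00252, 0.0364 and 0.0262. The day 14 and day 21 calls were lost with voom (adjusted p = 0.0599 and 0.0584) and without most single libraries, and fell to 0.54 without day 14 replicate 1 (adjusted p = 0.156) and 0.36 without day 21 replicate 1 (adjusted p = 0.350).

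Platelets store the products of 2 further genes of the ELR cluster. Ppbp, the precursor of the platelet ELR chemokine, fell from 16.9 to 32.4 CPM at day 0 to 5.08 to 14.8 at day 7, 1.89 to 12 at day 14 and 2.60 to 5.41 at day 21. Against day 0 Ppbp stood at log2 values of -1.33, -2.21 and -2.52, at adjusted p of 0.0495, 0.00292 and 0.00318. The day 7 call was lost without any 1 of day 0 replicates 1 to 4 or day 7 replicates 1 to 3, at adjusted p of 0.0543 to 0.133. Pf4, platelet factor, was 10.8 to 15.2 CPM at day 0 and 18.3 to 45.9 CPM at day 21. It rose at day 21 by 1.15 ± 0.34 (adjusted p = 0.0199), a call lost without day 21 replicate 1 (0.57, adjusted p = 0.229) or day 0 replicate 4 (1.05, adjusted p = 0.0568). Of 6 platelet and megakaryocyte markers 0, 1 and 1 rose and 2, 4 and 0 fell. They summed to 38.5 to 86.4 CPM at day 0 and 128.9 to 133.9 CPM at day 21, but the gene that rose was Itgb3, an integrin that other cells also make, from 20 to 52.5 CPM at day 0 to 101.0 to 115.4 CPM at day 21. The other 5 summed to 18.5 to 34.8 CPM at day 0 and 15.2 to 27.9 CPM at day 21, and the median log2 fold change of the list at day 21 was -0.60.

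Among 9 receptors tested, 2 rose and 3 fell at day 7, 2 rose and 3 fell at day 14, and 2 rose and 5 fell at day 21. Of all tested genes 8.78%, 12% and 12.4% rose and 7.36%, 11.2% and 10.1% fell at these days. The same shares stand beside every other list count against day 0. Cxcr2, through which the ELR ligands draw neutrophils, was 68.4, 117.0, 47.7 and 23.1 CPM at day 0, and 10.2, 26.3, 12.1 and 26.6 CPM at day 7. It was 10.2, 28.5, 23.2 and 17.4 CPM at day 14, and 12.2, 7.41 and 7.00 CPM at day 21. Replicate 4 was the low library of day 0, and day 21 lay wholly below day 0. The log2 fold changes were -1.77 ± 0.45 (SE), -1.69 ± 0.44 and -2.85 ± 0.53, with adjusted p of 0.0104, 0.00889 and 0.000920. Cxcr1 was 1.78 to 3.11 CPM at day 0 and 0.285 to 0.353 CPM at day 21, a fall of 3.05 on the log2 scale with adjusted p of 0.00410.

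Neutrophil markers, of which only some fell at each day, summed to 413.6 to 827.2 CPM at day 0, 138.2 to 377.0 at day 7 and 136.6 to 600.2 at day 14. At day 21 they were 94.4 and 103.8 CPM in replicates 2 and 3 but 886.6 in replicate 1, of which the granule gene Ltf, also made by airway glands, gave 717.7. Of the 9 tested, 3, 1 and 4 fell and 0, 0 and 1 (Ltf, by 3.47 at adjusted p of 0.0248, and -0.99 without day 21 replicate 1) rose. The Ltf call was also lost without day 0 replicate 2, 3 or 4, at adjusted p of 0.0539 to 0.0665. S100a9, a calcium-binding protein abundant in neutrophils, fell by 1.95 at day 7 and by 3.05 at day 21, with adjusted p of 0.0153 and 0.00199. Its day 14 value was -1.36 at adjusted p of 0.0563, and -2.12 at 0.00414 without day 14 replicate 3. The part of neutrophil content in the Cxcr1 and Cxcr2 values was not tested.

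Cxcr3, the receptor of Cxcl9 and Cxcl10, was 2.78, 3.02, 2.22 and 2.34 CPM at day 0, and 5.32, 2.34, 7.96 and 3.86 CPM at day 7. It was 1.12, 0.957, 2.23 and 1.39 CPM at day 14 and 1.92, 0.855 and 3.06 CPM at day 21. Against day 0 the values of 0.91, -0.86 and -0.42 did not pass (adjusted p = 0.102, 0.125 and 0.515). From day 7 to day 14 Cxcr3 fell by 1.77 (SE 0.41, adjusted p = 0.0218), a call lost without day 7 replicate 3 (adjusted p = 0.0679) or day 14 replicate 2 (adjusted p = 0.0686). T cell markers summed to 42.0 to 73.2, 35.2 to 91.2, 26.6 to 46.0 and 19.6 to 54.2 CPM at the 4 days, with 0, 3 and 0 of 10 lower. NK cell markers summed to 34.9 to 90.6, 16.2 to 38.0, 6.20 to 24.0 and 5.87 to 13.1 CPM, with 0, 8 and 8 of 8 lower. Cxcr6, the receptor of Cxcl16, did not pass against day 0 (0.67, -0.44 and -1.02, the last passing at -1.32 without day 0 replicate 4, adjusted p = 0.0497), and fell by 1.68 from day 7 to day 21 (adjusted p = 0.0408). That call was lost without day 7 replicate 1 or 3 or any 1 day 21 library, at adjusted p of 0.0567 to 0.132.

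Cxcr4, the signalling receptor of Cxcl12, fell at day 7 (-0.79 ± 0.17 SE, adjusted p = 0.00465) and day 21 (-0.72 ± 0.19, adjusted p = 0.0101). At day 14 its value of -0.53 had an adjusted p of 0.0269 and a fold under 1.5, and it passed without day 0 replicate 2 (-0.65) or day 14 replicate 2 (-0.66). It was 61.3 to 92.0 CPM at day 0 and 35.4 to 59.9 CPM at day 7, with no overlap. Ackr3, the decoy receptor that clears Cxcl12, moved the other way, from 38.0 to 51.2 CPM at day 0 to 59.1 to 88.1, 90.7 to 137.3 and 112.6 to 135.7 CPM. Its log2 fold changes were 0.74 ± 0.15, 1.33 ± 0.15 and 1.44 ± 0.16, with adjusted p of 0.00280, 1.38e-05 and 1.56e-05. Its further rise from day 7 to day 21 (0.70, adjusted p = 0.0121) was lost without day 21 replicate 1 (adjusted p = 0.0557). The Ackr3 call from day 7 to day 14 was lost without day 7 replicate 1, 3 or 4 or day 14 replicate 2 or 3, at adjusted p of 0.0501 to 0.0840. Without day 14 replicate 4 its fold was under 1.5 (0.58).

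Cxcr5, the receptor of Cxcl13, was 5.13 to 8.03 CPM at day 0, 1.96 to 8.29 at day 7, 0.765 to 3.49 at day 14 and 1.08 to 2.18 at day 21. It fell at day 14 (-1.71 ± 0.47 SE, adjusted p = 0.0117) and day 21 (-2.04 ± 0.53, adjusted p = 0.00954). Ackr1, the decoy receptor of venular endothelium and red cells that binds many inflammatory chemokines, was 0.647, 0.423, 0.190 and 0 CPM at day 0, the last allowing up to 0.167 CPM. It was 1.15 to 2.40 CPM at day 7, 1.57 to 3.78 at day 14 and 3.41 to 7.42 at day 21. Its log2 fold changes were 2.45 ± 0.60, 2.85 ± 0.60 and 3.92 ± 0.62, with adjusted p of 0.00905, 0.00213 and 0.000287. Ackr4, a decoy receptor for Ccl19 and Ccl21, fell from 4.84 to 8.95 CPM at day 0 to 0.654 to 3.90, 0.319 to 1.32 and 0.627 to 1.29 CPM, by 1.79, 3.14 and 2.96 on the log2 scale. The adjusted p were 0.0156, 0.000428 and 0.00158, and the day 7 call was lost without day 7 replicate 2 (-1.56, adjusted p = 0.050).

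**Figure D4:**
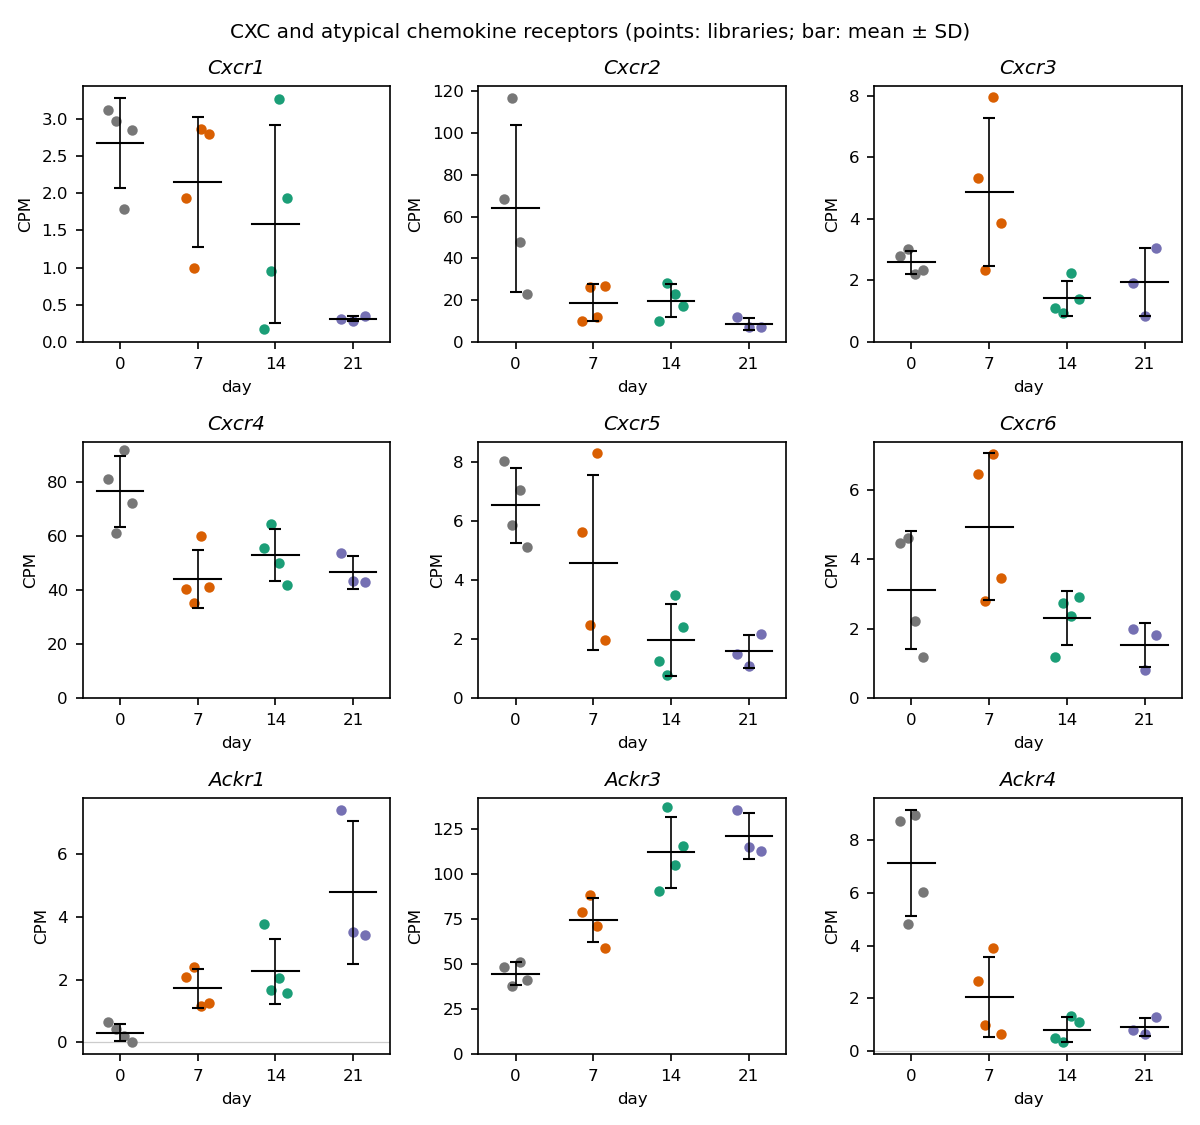
Level of the 9 tested receptors in CPM (y axis, linear, a scale of its own in each panel) by day (x axis). Points are libraries, and bars the mean ± SD of 4, 4, 4 and 3 libraries. Ackr1 and Ackr3 rise while Cxcr2 and Ackr4 fall, and Cxcr3 is highest in day 7 replicate 3, at 7.96 CPM.

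Of the cytokines that induce these ligands, 6 of 11 were tested. Il1b, the interleukin that drives Cxcl1, Cxcl2 and Cxcl5, fell from 28.6 to 68.5 CPM at day 0 to 13.6 to 24.5, 10.4 to 30.5 and 10.9 to 17.2 CPM. Its log2 fold changes were -1.65 ± 0.31 (SE), -1.35 ± 0.31 and -2.02 ± 0.35, with adjusted p of 0.00197, 0.00373 and 0.000637. No other tested cytokine of the list passed at any day against day 0. Of 10 regulators induced by NF-kappa-B or interferon, 5 rose at day 7, 3 rose and 2 fell at day 14, and 2 rose and 2 fell at day 21. Socs1, a feedback inhibitor of interferon signalling, rose at day 7 (1.44, adjusted p = 0.00354) and day 14 (0.87, adjusted p = 0.0363), and at day 21 was 0.36 at adjusted p of 0.438. The day 14 call of Socs1 was lost without day 0 replicate 2, 3 or 4 or day 14 replicate 2, 3 or 4, at adjusted p of 0.0517 to 0.113. Socs3, a feedback inhibitor of interleukin 6 signalling, rose by 1.21, 1.39 and 1.77, with adjusted p of 0.000933, 0.000146 and 4.25e-05. Relb, of the noncanonical NF-kappa-B pathway, rose by 0.78, 0.69 and 0.92, with adjusted p of 0.000380, 0.000446 and 9.65e-05.

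Of 6 enzymes that cut or shed CXC ligands, 2 rose at each day and 1, 2 and 2 fell. Mmp12, the macrophage elastase, which cleaves ELR ligands, rose from 4.11 to 4.85 CPM at day 0 to 55.9 to 176.5, 144.0 to 501.1 and 220.6 to 912.6 CPM. Its log2 values against day 0 were 4.84, 6.43 and 6.88, with adjusted p of 4.17e-05, 2.17e-06 and 2.54e-06. Dpp4, which trims Cxcl9, Cxcl10 and Cxcl12 at the amino end, was -0.56 at day 7 (adjusted p = 0.193) and fell by 1.01 at day 14 and by 1.40 at day 21, with adjusted p of 0.0199 and 0.00645, the day 14 call being lost without day 14 replicate 2 (-0.91, adjusted p = 0.0591). Adam10, the sheddase of Cxcl16, rose by 0.61 at day 14 and 0.71 at day 21, with adjusted p of 0.00229 and 0.00146. Its day 14 fold dropped under 1.5 when day 0 replicate 3, day 0 replicate 4 or day 14 replicate 1 was left out, and so did its day 21 fold when day 0 replicate 3 or day 21 replicate 3 was, at log2 values of 0.49 to 0.58. Mmp9, a gelatinase of neutrophils, fell by 1.11, 1.28 and 2.17, with adjusted p of 0.0197, 0.00635 and 0.000502, the day 7 call being lost without day 0 replicate 2 (-0.86, adjusted p = 0.0575) or day 7 replicate 1 (-0.98, adjusted p = 0.0604).

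Of 10 genes of the lymphoid chemokine and lymphotoxin axis, in which Cxcl13 acts, 7 were tested. None passed at day 7, and 2 rose and 1 fell at day 14 and at day 21. Ccl21a, the T cell zone chemokine of lymphatic endothelium, rose by 0.60 at day 14 (adjusted p = 0.0326) and by 1.13 at day 21 (adjusted p = 0.00131). Its day 14 call was lost without any 1 day 0 library or without day 14 replicate 2 or 4, at adjusted p of 0.0560 to 0.143. Ltbr, the lymphotoxin beta receptor, rose by 0.68 and 0.72 at those days, with adjusted p of 0.000579 and 0.000779, and without day 14 replicate 2 its day 14 fold was under 1.5 (0.56). Tnfsf13b, the B cell survival factor BAFF, fell by 0.67 at day 14 (adjusted p = 0.00630, and -0.58, a fold under 1.5, without day 14 replicate 2), and Cr2, a complement receptor of B cells and follicular dendritic cells, fell by 1.74 at day 21 (adjusted p = 0.0285), a call lost without day 0 replicate 1 or day 21 replicate 1 or 2, at adjusted p of 0.0669 to 0.0967. Of the remaining marker lists, alveolar type 1 markers had 1, 1 and 1 of 6 higher and 1, 0 and 2 lower. Of the tested cardiac muscle markers 0, 1 and 0 of 5 were lower, and of the tested adipose markers 0, 4 and 3 of 4, with none higher in either list.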

How the data were processed

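Whole lung RNA-seq libraries (15) were grouped by day from their titles. Per the labels and the study's methods, the authors trimmed reads with TrimGalore, aligned them to mm10 with HISAT2 2.1.0, kept uniquely aligned reads, and deposited raw counts per gene from HTSeq 0.6.0 with no normalization. The annotation release and strand setting are not given in the sources used here. Symbols came from GENCODE M21 (33267 of 33340 genes matched). Promoter sequences and starts are from RefSeq (GRCm38.p6).

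From these counts, edgeR 4.0.16 in R 4.3.3 was run: filterByExpr, TMM scaling, glmQLFit and glmQLFTest, with a term for day alone and every library in the same fit. P-values were adjusted by Benjamini-Hochberg over 17457 genes. A gene was called at an adjusted p under 0.05 and a fold over 1.5, as in the study. CPM are TMM-scaled. Levels per length were divided by the exon union, and SE is the log2 fold change over the square root of F. The biological coefficient of variation was 22.8%. A floor of 3 counts was used for a count of 0, and it covers counting error only. The fit was tested on simulated data.

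Alternatives were DESeq2 1.42.0, limma 3.58.1 (voom), other scalings and filters, no fold threshold, glmTreat, 2 groups alone, a replicate block, mitochondrial share as a term, and leaving out each library. Fits within libraries of low or high mitochondrial share were added after the data were seen. The genes described and the gene lists were chosen with earlier results of these data known. All 10 genes, the other CXC ligands and every tested receptor are named, and of the other lists called genes with the largest changes against day 0, at most 4 a list. S100a8, Ly6g and Slc34a2 met that rule and are counted but not described with folds, and the other marker lists are given by counts and sums. Lamp3 and Zfp36 met it too, and their log2 values are given only where the sign turned. Col1a1, Col1a2, Itgb3, Scgb1a1, Cyp2f2, Krt5 and Chil3 are named for their part in a marker sum or count, chosen after their values were seen. Protein sequences were not used here.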

Additional observations from a re-analysis of the deposited data

Results flagged for a closer look

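Among 69 gene-by-day groups of 4 libraries, covering the 10 genes, the other tested ligands and the receptors, 4 had a library far from the other 3 by Dixon's test at 95%, where chance gives about 1 in 20. Cxcl1 was 1.84 CPM in day 0 replicate 4, against 0.665 to 0.777 in the others. It was 5.25 CPM in day 7 replicate 2, against 1.76 to 2.08. Cxcl13 was 18.1 CPM in day 0 replicate 2, against 1.90 to 4.60, and 50.0 CPM in day 14 replicate 1, against 6.06 to 10.8.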

How the results depend on the processing

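The 10 genes gave 30 values against day 0 and 550 alternative values of them. Direction and side of the threshold were kept in 511, a call was lost in 8 and gained in 29, and the sign turned in 2, Cxcl12 (-0.04) and Cxcl15 (0.32) at day 14 among libraries over 3.5% mitochondrial counts. The number called at day 7 was 3 with glmTreat (beside 4.03% of all genes) and 8 among libraries under 2.5% (12.8%), in place of 5 (16.1%). From day 7 to day 14 it was 1 with no filter (3.9%), 2 with the 2 groups alone (5.92%) and 2 with DESeq2 (8.71%), in place of 0 (6.00%). From day 7 to day 21 it was 2 with no filter (5.63%), 3 with voom (9.56%), 0 with glmTreat (1.01%), 2 with DESeq2 (12%), and 1 to 3 when single libraries were left out (2 without day 21 replicate 2, beside 6.41%, and 3 without replicate 3, beside 10.2%), in place of 1 (9.54%). The Cxcl1 call at day 7 was lost in 6 of 19 alternatives, including glmTreat and the mitochondrial term, and Cxcl12 gained one at day 7 in 7 of 19. glmTreat also ended the calls of Cxcl16 at day 7 and Cxcl15 at day 21. The cause was not tested.

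Correlations could not settle whether replicate numbers pair the libraries. Same-numbered libraries of different days correlated at -0.244 to 0.397 (median 0.041, other numbers -0.032), and 7 of 15 correlated best with their own number. How many would do so by chance was not computed. With the replicate block the number called from day 7 to day 21 was 2, beside 9.46% of all genes. At day 7 it was 7, with Cxcl12 (0.75, adjusted p = 0.0366) and Cxcl13 (2.11, adjusted p = 0.0256) gained, beside 16.7%, and against day 0 at days 14 and 21 it stayed at 4 and 6, beside 23.6% and 21.5%.

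Signs also turned for Cxcr1 at day 7 (0.06, mitochondrial term), Cxcr6 at day 14 (0.65, libraries over 3.5%), Lamp3 at day 7 (0.10 with the mitochondrial term, and -0.08 to 0.04 when single libraries were left out, with 0.00 and 0.04 without day 0 replicate 2 and day 7 replicate 2), Ltf at day 21 (-0.99 to 3.98, the lowest without day 21 replicate 1) and Zfp36 at day 7 (0.15, libraries under 2.5%). Genes such as Cxcl5, Cxcl9, Cxcl2 and Cxcl1 had under 20 counts in most day 0 libraries, which limits their folds.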
